A study of Rattus norvegicus with 60 samples.

Results

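Collagens, elastic fibre proteins and their partners form the scaffold of the lung, and 54 such genes were followed here across whole-lung RNA of rats that had breathed crystalline silica or filtered air. The genes were taken from a named list and matched to the array by symbol or current gene name, keeping those detected (detection p under 0.05) on at least 4 of the 60 lungs. Of the 54, 52 had an entry on the array and 49 passed, among 13918 genes tested in all. Col5a3 (a minor fibril-forming chain), Hspg2 (perlecan) and Thbs2 (a thrombospondin) were detected on 0 arrays, and Tnc and Thbs1 were not analysed here. Of the 49, 46 were detected on all 60 lungs, Fbln2 on 59, Col4a4 on 55 and Col6a2 on only 4.

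The animals were male CDF Fisher 344 rats of about 3 months. One arm inhaled crystalline silica (15 mg/m3) on 5 days, 6 hours each day, and the other breathed air. Lungs were taken 1, 2, 4, 8 or 16 weeks after the last exposure from 8 silica and 4 air rats a week, a separate rat for each array, so that weeks after exposure are also weeks of age. Total RNA of the lung was hybridised to Illumina bead arrays, and levels below are normalised log2 intensities, so a difference of 1 is a doubling. A level of 1 gene is not comparable with that of another gene, because each is read by its own probe.

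Fibrillar collagens (types I, III and V) assemble into the tensile fibres around airways, vessels and alveolar ducts, while type IV collagen, laminins and nidogens form the basement membrane sheet under epithelium and endothelium. Elastin is deposited on fibrillin microfibrils during lung growth and is crosslinked, like collagen, by lysyl oxidases. Synthesis of these proteins is high in the growing lung and rises again in scarring, and inhaled silica is a known cause of lung fibrosis.

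Type IV collagen genes lie head to head in pairs, which is why the stretches between or before their starts are shown here: both genes of the first pair, Col4a1 and Col4a2, fell over the weeks, and of the second pair Col4a3 had the largest silica difference of the 49 genes at any single week while Col4a4 lay near the limit of detection. In the RefSeq annotation of build GRCr8, 76 bases separate the starts of Col4a2 (minus strand) and Col4a1 (plus strand) on chromosome 16, and 412 bases separate those of Col4a4 (minus) and Col4a3 (plus) on chromosome 9. Sequences are written 5′ to 3′ in lower case, with capitals marking each match to a GC box (GGGCGG or, on the other strand, CCGCCC).
Between Col4a2 and Col4a1, chr16:84885521-84885596, plus strand: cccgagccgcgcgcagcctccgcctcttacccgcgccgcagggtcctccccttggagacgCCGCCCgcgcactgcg
Col4a3, 250 bases before the start, chr9:91323740-91323989, plus strand: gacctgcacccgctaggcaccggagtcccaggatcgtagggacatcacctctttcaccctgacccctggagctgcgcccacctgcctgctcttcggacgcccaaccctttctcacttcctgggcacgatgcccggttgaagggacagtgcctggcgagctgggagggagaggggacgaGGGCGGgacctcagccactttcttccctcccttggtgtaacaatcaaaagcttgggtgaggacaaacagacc
Col4a4, 250 bases before the start, chr9:91323578-91323827, minus strand: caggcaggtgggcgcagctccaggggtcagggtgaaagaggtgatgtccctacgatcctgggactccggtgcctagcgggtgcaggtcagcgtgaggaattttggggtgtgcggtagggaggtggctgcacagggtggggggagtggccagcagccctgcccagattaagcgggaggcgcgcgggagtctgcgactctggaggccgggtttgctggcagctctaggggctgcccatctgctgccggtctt

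The stretch between Col4a2 and Col4a1 is 78.9% G and C and holds 1 GC box, and that before Col4a3 is 62% and holds 1. The stretch before Col4a4 is 66.4% and holds 0. A CCAAT motif (or ATTGG) and a TATA motif (TATAAA or TTTATA) were searched on both strands as well and had 0 matches in all 3 stretches. Among 27457 RefSeq promoters of 250 bases the GC box was in 32.4%, CCAAT in 34.3% and the TATA motif in 13.1%, and among their last 76 bases in 19.3%, 13% and 4.78%. The median GC content was 52% over 250 bases and 55.3% over 76.

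The clearest pattern was a fall with time in lungs that had breathed only air. All 5 fibrillar collagen genes measured fell, Col1a1 with the steepest slope of the 5, and 4 of 9 elastic fibre genes fell, elastin with the steepest. In all, 24 of the 49 genes fell and 0 rose, judged by the slope of the level per doubling of weeks, against 1.19% of all genes tested that fell and 0.74% that rose (1.93% in either direction). The median slope was -0.07 over the 49 genes and 0.00 over all genes, and 46 of the 49 slopes were below 0.

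Col1a1, the main chain of type I collagen, read 9.80, 9.72, 9.87 and 9.98 in the 4 air lungs at 1 week. At 8 weeks the lungs read 8.90, 9.17, 9.00 and 9.12, and at 16 weeks 8.64, 8.70, 8.58 and 8.72. The lungs at 16 weeks thus lay wholly below those at 1 week, at 44.02% of the earlier linear level. The slope was -0.31 ± 0.03 (SE) per doubling of weeks, adjusted p = 1.49e-12 by limma.

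Col1a2, the second chain of the same molecule, went from 13.86, 14.02, 13.97 and 14.02 at 1 week to 13.28, 13.38, 13.41 and 13.62 at 16 weeks, with a slope of -0.14 ± 0.02 (adjusted p = 2.5e-08). Col3a1, which makes the finer type III fibres, read 11.09, 11.08, 11.01 and 10.98 at 1 week and 10.19, 10.26, 10.20 and 10.15 at 16 weeks, and its slope was -0.20 ± 0.02 (adjusted p = 2.63e-10). In neither gene did the lungs of the 2 weeks overlap. The 2 type V chains, which set fibril diameter, had slopes of -0.14 ± 0.02 (Col5a1) and -0.13 ± 0.01 (Col5a2), adjusted p = 1.2e-05 and 2.44e-08.

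Elastin (Eln) read 11.35, 11.48, 11.20 and 11.86 in air lungs at 1 week. At 16 weeks it read 10.01, 10.24, 10.43 and 10.73, which was 46.1% of the level at 1 week. All 4 lungs at 16 weeks were below the lowest at 1 week, and the slope was -0.30 ± 0.03 (adjusted p = 2.68e-11). Fbn1, the fibrillin of the microfibrils on which elastin is laid, sloped by -0.17 ± 0.02 (adjusted p = 5.65e-07), Mfap2, a microfibril-associated protein, by -0.13 ± 0.02 (adjusted p = 2.64e-05) and Fbln5, a fibulin needed for elastic fibre assembly, by -0.09 ± 0.02 (adjusted p = 0.0241). The other 5 elastic fibre genes had slopes from -0.10 to -0.03 and were not called, with Fbln2 nearest to it (-0.10 ± 0.03, adjusted p = 0.0515).

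Among basement membrane genes, 8 of 11 fell in air lungs. Col15a1, a collagen of the zone where basement membrane meets fibrils, read 9.78, 9.57, 9.80 and 9.90 at 1 week and 8.83, 8.67, 8.94 and 8.81 at 16 weeks, a fall to 51.78% with a slope of -0.23 ± 0.03 (adjusted p = 6.46e-09). The head-to-head pair fell together, Col4a1 by 0.14 ± 0.02 and Col4a2 by 0.17 ± 0.03 per doubling (adjusted p = 4.61e-08 and 1.88e-05). Nidogens, which link laminin to type IV collagen, sloped by -0.20 ± 0.03 (Nid1, adjusted p = 2.54e-06) and -0.13 ± 0.02 (Nid2, adjusted p = 1.8e-06). The laminin chains Lama2, Lamb1 and Lamc1 fell by 0.08, 0.08 and 0.10.

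The exceptions were Col4a3 and Col4a4, chains of a separate type IV network found in alveolar and kidney basement membranes, and Col18a1, the source of endostatin. Col4a3 sloped by -0.06 ± 0.04, Col4a4 by -0.01 ± 0.03 and Col18a1 by -0.04 ± 0.02, and none of the 3 was called. Col4a4 stayed near the limit of detection, with all 20 air lungs between 5.07 and 5.65.

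Crosslinking enzymes split. Lox, the lysyl oxidase that crosslinks collagen and elastin, read 11.54, 11.79, 11.73 and 11.92 at 1 week and 11.07, 11.27, 11.15 and 11.42 at 16 weeks in air, a slope of -0.14 ± 0.02 (adjusted p = 0.000148). Loxl1, the relative that acts on elastin, sloped by -0.15 ± 0.02 (adjusted p = 1.88e-05). The 5 others did not pass: Loxl2 had -0.16 ± 0.05 (adjusted p = 0.06), and the hydroxylases P4ha1, Plod1 and Plod2 and the collagen chaperone Serpinh1 had slopes between -0.05 and 0.00.

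Of the other classes, Col6a1 and Col6a3, chains of the beaded type VI filaments, sloped by -0.11 ± 0.02 and -0.07 ± 0.02. The remaining 5 collagens grouped with them (Col6a2, Col8a1, Col12a1, Col14a1 and Col16a1) were not called. Sparc, a collagen-binding glycoprotein, read 13.28, 13.31, 13.32 and 13.22 at 1 week and 12.85, 12.91, 12.88 and 12.80 at 16 weeks (slope -0.11 ± 0.01, adjusted p = 9.7e-08). Fibronectin (Fn1) fell by only 0.06 ± 0.02 per doubling (adjusted p = 0.0353), and 8 of the 20 omissions of 1 air rat ended that call. Biglycan (Bgn) was the 1 small proteoglycan of 6 that fell (-0.08 ± 0.02, adjusted p = 0.0284). Decorin (Dcn), the proteoglycan that coats collagen fibrils, had a slope of 0.03 ± 0.05 and ranged from 11.28 to 12.38 over the 20 air lungs.

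**Figure D1:**
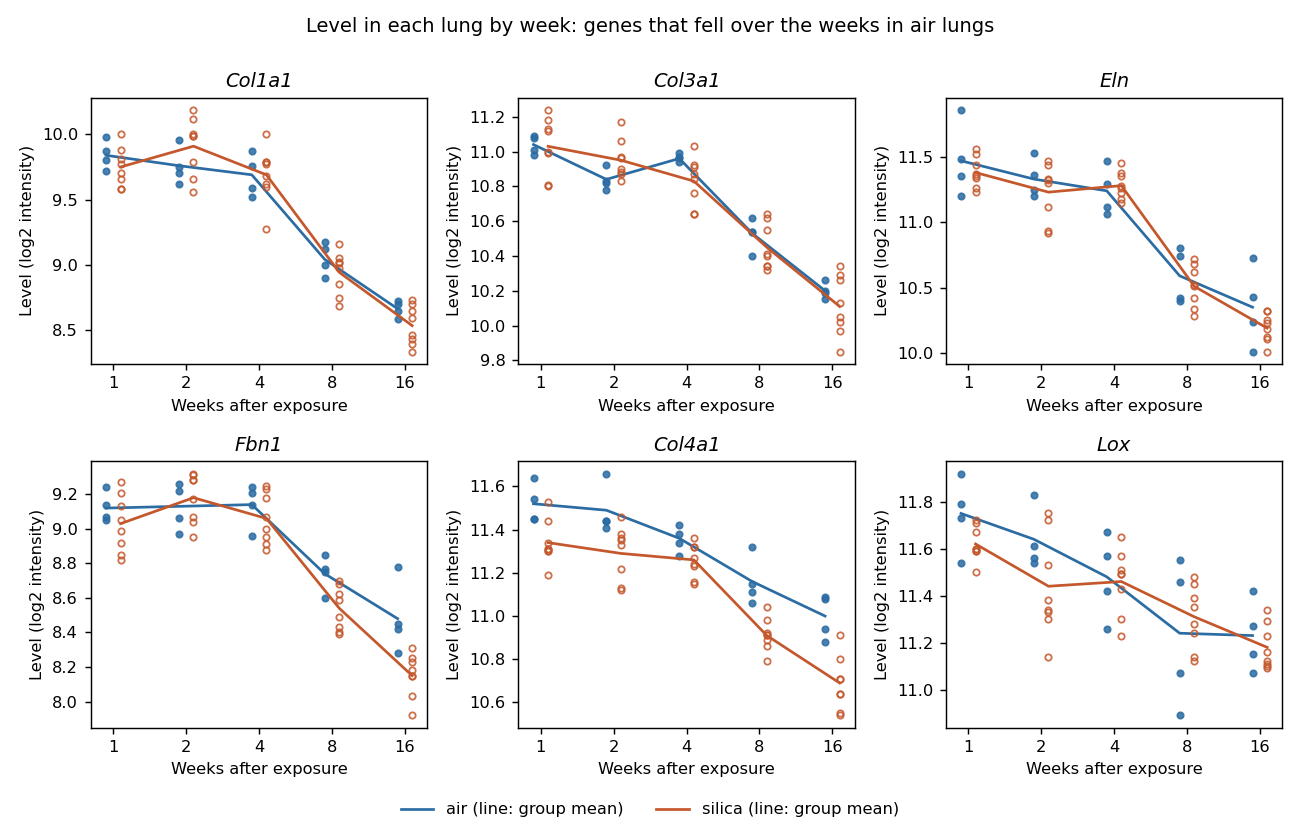
Level (log2 intensity, vertical axis) of Col1a1, Col3a1, Eln, Fbn1, Col4a1 and Lox in each of 60 lungs by weeks after exposure, with filled points for air, open points for silica and lines through the group means. In both arms the 16-week lungs lie below the 1-week lungs in all 6 genes, and for Col1a1 and Eln the step from 4 to 8 weeks is the largest.

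The fall was not spread evenly over the 16 weeks. In air lungs the median step of the 49 genes was 0.00 from 1 to 2 weeks, -0.04 from 2 to 4 weeks, -0.19 from 4 to 8 weeks and -0.12 from 8 to 16 weeks, while the median of all genes was 0.00 at each step. For the 5 fibrillar collagens the same steps were -0.01, -0.02, -0.33 and -0.23. Of the 24 genes that fell, 21 had their largest drop between 4 and 8 weeks. Col1a1 dropped by 0.64 and Eln by 0.65 in that interval, while Col15a1 dropped by 0.30 and then by 0.48 from 8 to 16 weeks. In silica lungs the fall was shared more evenly by the last 2 steps. Median steps of the 49 genes there were 0.02, -0.07, -0.21 and -0.22. Of the same 24 genes, 13 had their largest drop in silica lungs from 4 to 8 weeks and 9 from 8 to 16 weeks. These steps are differences of group means and carry no test of their own. The mean log2 level of 4 heart muscle markers (Myh6, Myl7, Tnni3 and Tnnt2) also changed in air lungs. From 1 to 16 weeks it was 9.06, 7.96, 5.54, 9.46 and 10.28, with its largest rise also from 4 to 8 weeks. None of the 4 air slopes was called. With that mean in the fit 24 genes were called lower in the air slope, 22 of them among the 24 above. Its part in the steps was not tested.

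In silica lungs 39 of the 49 genes fell over the weeks and 1 rose, against 15.1% of all genes that fell and 12.9% that rose (28% in either direction). This arm has 40 rats against 20, which narrows its errors. All 24 genes that fell in air also fell in silica lungs, which makes 100% of the air set and 60% of the silica set. Col1a1 in silica lungs had a lowest, median and highest value of 9.58, 9.74 and 10.00 at 1 week and of 8.33, 8.52 and 8.73 at 16 weeks, a fall to 43.09%. Eln went from 11.23, 11.36 and 11.56 to 10.01, 10.20 and 10.32, a fall to 43.79%.

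The slopes of the 2 arms were also compared directly. For Col1a1 the silica slope minus the air slope was -0.03 ± 0.03 (adjusted p = 0.764), for Eln -0.01 ± 0.03 (adjusted p = 0.943) and for Col3a1 -0.03 ± 0.02 (adjusted p = 0.602). The 16-week lungs did not overlap those of 1 week, and were lower, in 25 genes in air and 28 in silica, where 2.7% and 3.76% of all genes did the same.

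**Figure D2:**
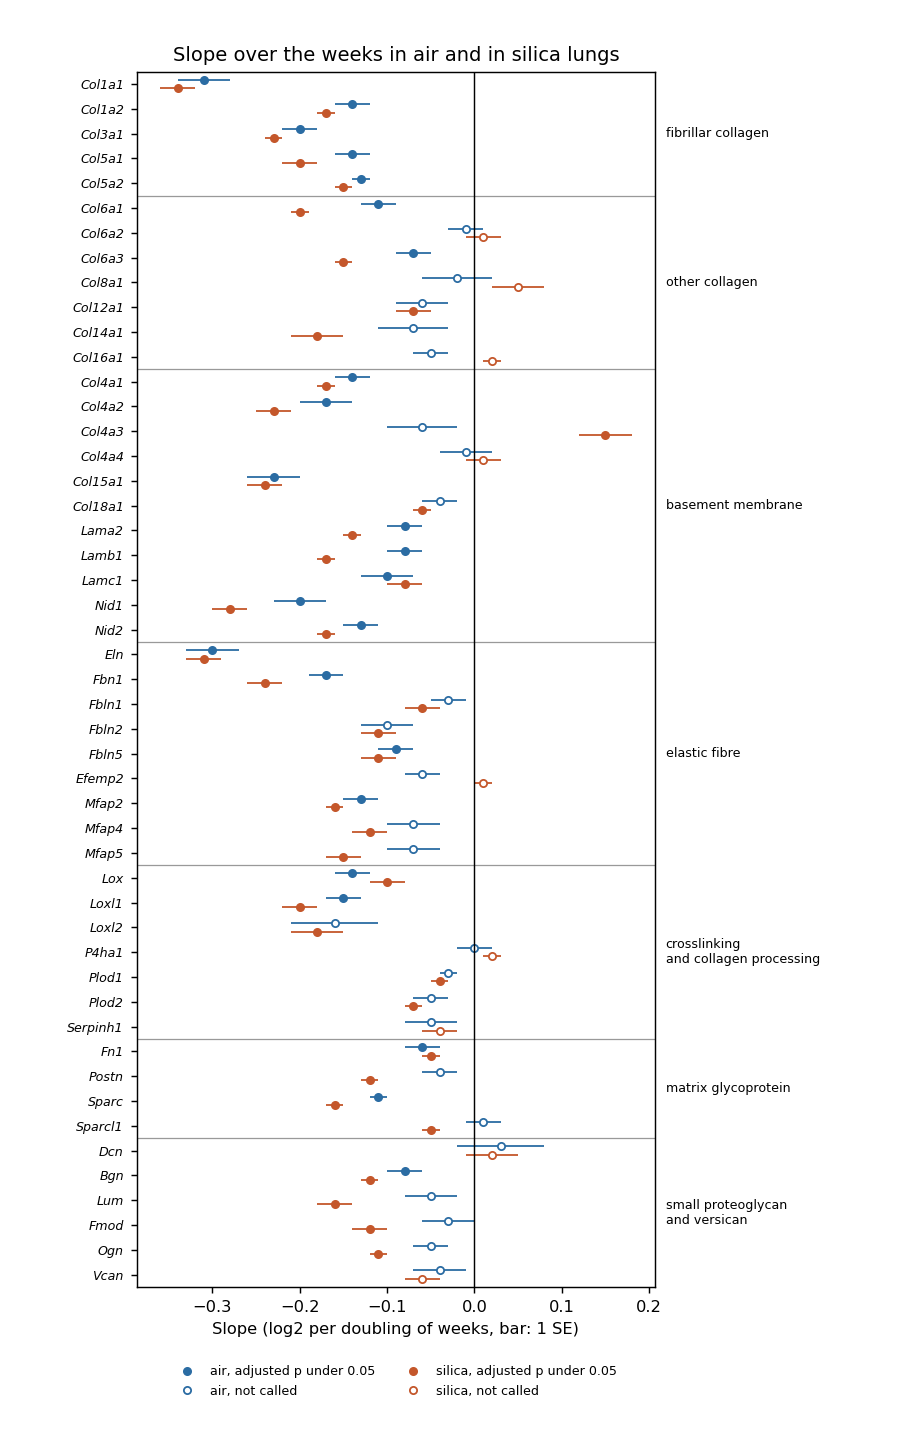
Slope of the level per doubling of weeks (horizontal axis, log2) for the 49 genes in air (blue) and silica lungs (orange), by class, with bars of 1 SE and filled points for adjusted p under 0.05. The 5 fibrillar collagens and Eln lie left of 0 in both arms, and Col4a3, at 0.15, is the only gene with a slope called higher in silica lungs, where 41 of the 49 slopes were below 0.

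Other matrix genes gave a smaller share than the 49. Of 58 further genes of the extracellular matrix, 7 fell and 1 rose over the weeks in air. That was 13.8% called, against 49% of the 49 genes and 1.93% of all genes (1.19% lower and 0.74% higher). All 7 lung epithelial markers tested were detected on all 60 arrays. In the air slopes 0 of 7 epithelial, 0 of 5 smooth muscle and 1 of 6 endothelial markers were called. The 5 smooth muscle slopes nevertheless lay between -0.10 and -0.05, with a median of -0.07 like that of the 49 genes, and 5 of the 6 endothelial slopes were below 0 (median -0.04). In silica lungs, where more of the 49 fell, 4 of 5 smooth muscle and 5 of 6 endothelial slopes were called lower (medians -0.13 and -0.08, against -0.12 over the 49 genes) and 4 of 4 macrophage slopes higher (median 0.08). The part of these cells in the fall was not tested. Of 5 fibroblast markers only Pdgfra was called and it rose (0.09, adjusted p = 0.0289), with a mean level of the 5 between 7.93 and 8.00 in every air group. Thy1 and Fgf10, which are among the 5, were detected on only 7 and 6 of 60 arrays and so carry little information. In whole tissue, fewer cells of a type and less RNA per cell cannot be told apart.

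Whether silica itself changed these genes was asked against air lungs of the same week, where age is held equal. Type I and III collagen and elastin, the usual products of scarring, were not called at any of the 5 weeks, and neither were Lox, Fn1, Serpinh1 or Dcn. Col1a1 in silica lungs spanned 9.56, 9.99 and 10.19 (lowest, median and highest) at 2 weeks against 9.70, 9.96, 9.62 and 9.75 in air, the week of its largest positive difference (0.15 ± 0.10, adjusted p = 0.411). At 16 weeks the air values given above lay among those of silica lungs for Col1a1, and the difference was -0.13 ± 0.10 (adjusted p = 0.422). The 95% interval of the difference reached at most 1.28-fold up for any fibrillar collagen at any week (Col1a1 at 2 weeks) and 1.35-fold down (Col5a1 at 8 weeks). For Eln the interval at 16 weeks ran from -0.38 to 0.05.

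At 1 week 4 of the 49 genes were called, 2 higher and 2 lower, where 2.67% of all genes were higher and 1.13% lower (3.79% in either direction). In 3 genes (Col4a3, Dcn and Mfap5) the silica lungs lay wholly below the air lungs and in 2 (Fmod and Plod1) wholly above, as in 1.08% and 2.26% of all genes. Col4a3 had the largest difference of the 49. Air lungs read 6.95, 7.27, 7.44 and 7.40, and silica lungs ranged from 6.11 through a median of 6.43 to 6.89. The groups did not overlap, and the difference was -0.84 ± 0.17, or 1.79-fold (adjusted p = 0.00109). No alternative setting and no omission of 1 rat ended that call.

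Fmod, fibromodulin, a proteoglycan that binds collagen fibrils, was higher at 1 week: 8.30, 8.37, 8.37 and 8.47 in air against 8.63, 8.91 and 9.14 in silica (0.53 ± 0.13, adjusted p = 0.00833). Its groups did not overlap, but with median scaling the adjusted p was 0.117. Plod1, a lysyl hydroxylase, was higher by 0.20 ± 0.06 (adjusted p = 0.0227), and Col15a1 was lower by 0.37 ± 0.10 (adjusted p = 0.0144). Both were lost under median scaling, among the 40 arrays of runs that hold both arms and when the week was fitted alone, and Col15a1 also without air replicate 3 or air replicate 4.

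At 2 weeks only Fbln2, a fibulin of vessel walls, and Col4a1 were called, both lower, against 4.53% of all genes lower and 4.73% higher (9.27% in either direction). The groups were apart in 1 gene, lower, and in 0, higher, where 1.39% and 1.95% of all genes were. Fbln2 read 6.11, 6.36, 6.43 and 6.35 in air and 5.72, 5.92 and 6.07 in silica, without overlap (-0.39 ± 0.12, adjusted p = 0.023). Col4a1 differed by -0.19 ± 0.06 (adjusted p = 0.0442). Neither was called without air replicate 3, nor without air replicate 4. The Col4a3 groups, apart at 1 week, overlapped at 2 weeks, with silica lungs at 6.81, 7.09 and 7.66 and air lungs between 6.79 and 7.61.

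At 4 weeks 4 genes were called, 3 lower and 1 higher, against 3.64% of all genes lower and 2.78% higher (6.42% in either direction). In 0 genes were the groups apart, in either direction, where 1.91% of all genes were apart and lower and 1.54% apart and higher. P4ha1, a subunit of the prolyl hydroxylase that stabilises the collagen helix, was higher by 0.32 ± 0.07 (adjusted p = 0.00332), with air lungs at 9.95, 9.81, 9.65 and 9.55 and silica lungs at 9.90, 10.05 and 10.22. Loxl1 was lower by 0.40 ± 0.09 (adjusted p = 0.00385), with air lungs at 11.08, 11.08, 11.21 and 11.42 and silica lungs at 10.53, 10.76 and 11.10. In both genes the ranges overlapped in part. Mfap4, a microfibril-associated glycoprotein, and Col18a1 were lower by 0.33 ± 0.11 and 0.20 ± 0.06 (adjusted p = 0.0479 and 0.0458). Without air replicate 4 none of the 49 genes was called at 4 weeks, and without air replicate 2 there were 8.

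At 8 weeks 11 genes were called, all lower, against 4.14% of all genes called lower and 4.77% higher (8.91% in either direction). They were 5 basement membrane genes (Col4a1, Col4a2, Col18a1, Lama2, Lamb1), the collagens Col5a1, Col6a1 and Col12a1, Mfap5, and the glycoproteins Postn and Sparcl1. In 1 gene, Col4a1, all silica lungs lay below all air lungs, and in 0 above, against 2.35% and 2.87% of all genes. Postn, periostin, had the lowest adjusted p (-0.28 ± 0.06, 0.00156). Col12a1, a collagen on fibril surfaces, read 8.03, 7.73, 8.20 and 8.27 in air and 7.50, 7.75 and 7.86 in silica (-0.35 ± 0.10, adjusted p = 0.0166). Under median scaling, and among the 40 arrays of mixed runs, 0 of the 11 were called, and without air replicate 4 there were 3.

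At 16 weeks the number was larger: 26 of the 49 genes were called, 23 lower and 3 higher, where 12.2% of all genes were lower and 10.5% higher (22.7% in either direction). The median difference was -0.23 over the 49 genes against -0.01 over all genes. Basement membrane genes (8 of 11 lower), elastic fibre genes (5 of 9 lower, 1 higher) and matrix glycoproteins (3 of 4 lower) held most of the calls. Fibrillar collagens gave 1 of 5, Col5a1 (-0.26 ± 0.08, adjusted p = 0.0202), and crosslinking and processing genes gave 1 lower and 1 higher of 7. In 11 genes all 8 silica lungs lay below all 4 air lungs, and in 2 all lay above, where 6.6% and 5.76% of all genes did so.

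Lama2, the laminin chain of muscle and stromal basement membranes, read 9.24, 9.24, 9.18 and 9.34 in air at 16 weeks. Silica lungs ranged from 8.65 through 8.72 to 8.91, all below the air lungs, and the difference was -0.49 ± 0.07, or 1.40-fold (adjusted p = 1.06e-06). Lamb1, its common beta partner, read 10.28, 10.32, 10.46 and 10.64 in air and 9.81, 9.96 and 10.17 in silica (-0.47 ± 0.07, adjusted p = 5.02e-07). Neither gene's groups overlapped. Nid2 was lower by 0.37 ± 0.07 and Col18a1 by 0.29 ± 0.06, both without overlap, and Col4a1 by 0.31 ± 0.06 with overlap.

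The glycoprotein Postn read 12.54, 12.78, 12.66 and 12.57 in air and 12.00, 12.19 and 12.24 in silica (-0.47 ± 0.06, adjusted p = 4.42e-08). Sparcl1, a relative of Sparc found in vessel walls, read 12.82, 12.70, 12.77 and 12.82 against 12.28, 12.38 and 12.46 (-0.42 ± 0.06, adjusted p = 2.72e-07). Both sets of silica lungs lay wholly below air. Sparc itself differed by -0.26 ± 0.06 (adjusted p = 0.000322), also without overlap, and Fn1 by -0.04 ± 0.06 (adjusted p = 0.757).

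Type VI collagen was lower through both measured chains. Col6a1 read 10.39, 10.54, 10.61 and 10.76 in air and 10.04, 10.15 and 10.36 in silica (-0.40 ± 0.08, adjusted p = 4.18e-05), and Col6a3 differed by -0.41 ± 0.07 (adjusted p = 1.51e-05). Col6a2, detected on 4 arrays of 60, lay near background throughout. Of the elastic fibre genes Mfap5, a microfibril glycoprotein, had the largest difference, with air at 8.57, 8.60, 8.61 and 8.49 and silica at 7.92, 8.08 and 8.28 (-0.47 ± 0.10, adjusted p = 0.0002).

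Fbn1 was lower by 0.33 ± 0.09, Fbln2 by 0.37 ± 0.12, Fbln5 by 0.28 ± 0.09 and Mfap2 by 0.25 ± 0.08. All 4 had air and silica lungs that overlapped. Among the proteoglycans osteoglycin (Ogn) was lower by 0.31 ± 0.07 without overlap, and lumican (Lum) by 0.45 ± 0.14 (adjusted p = 0.0109). Col14a1, a fibril-surface collagen, had the widest spread of the genes called, with silica lungs between 8.16 and 9.40, and a difference of -0.47 ± 0.17 (adjusted p = 0.0421).

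Against these, 3 genes were higher at 16 weeks. Col16a1, a minor fibril-associated collagen, read 8.83, 8.68, 8.93 and 8.93 in air and 9.10, 9.34 and 9.40 in silica, without overlap (0.47 ± 0.08, adjusted p = 7.66e-06). Efemp2, the fibulin that brings lysyl oxidase to elastin, read 8.33, 8.20, 8.32 and 8.40 against 8.42, 8.52 and 8.69, also without overlap (0.23 ± 0.07, adjusted p = 0.00714). P4ha1 was higher by 0.21 ± 0.07 (adjusted p = 0.0282). Efemp2 and P4ha1 were not called under median scaling (0.18 and 0.12).

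**Figure D3:**
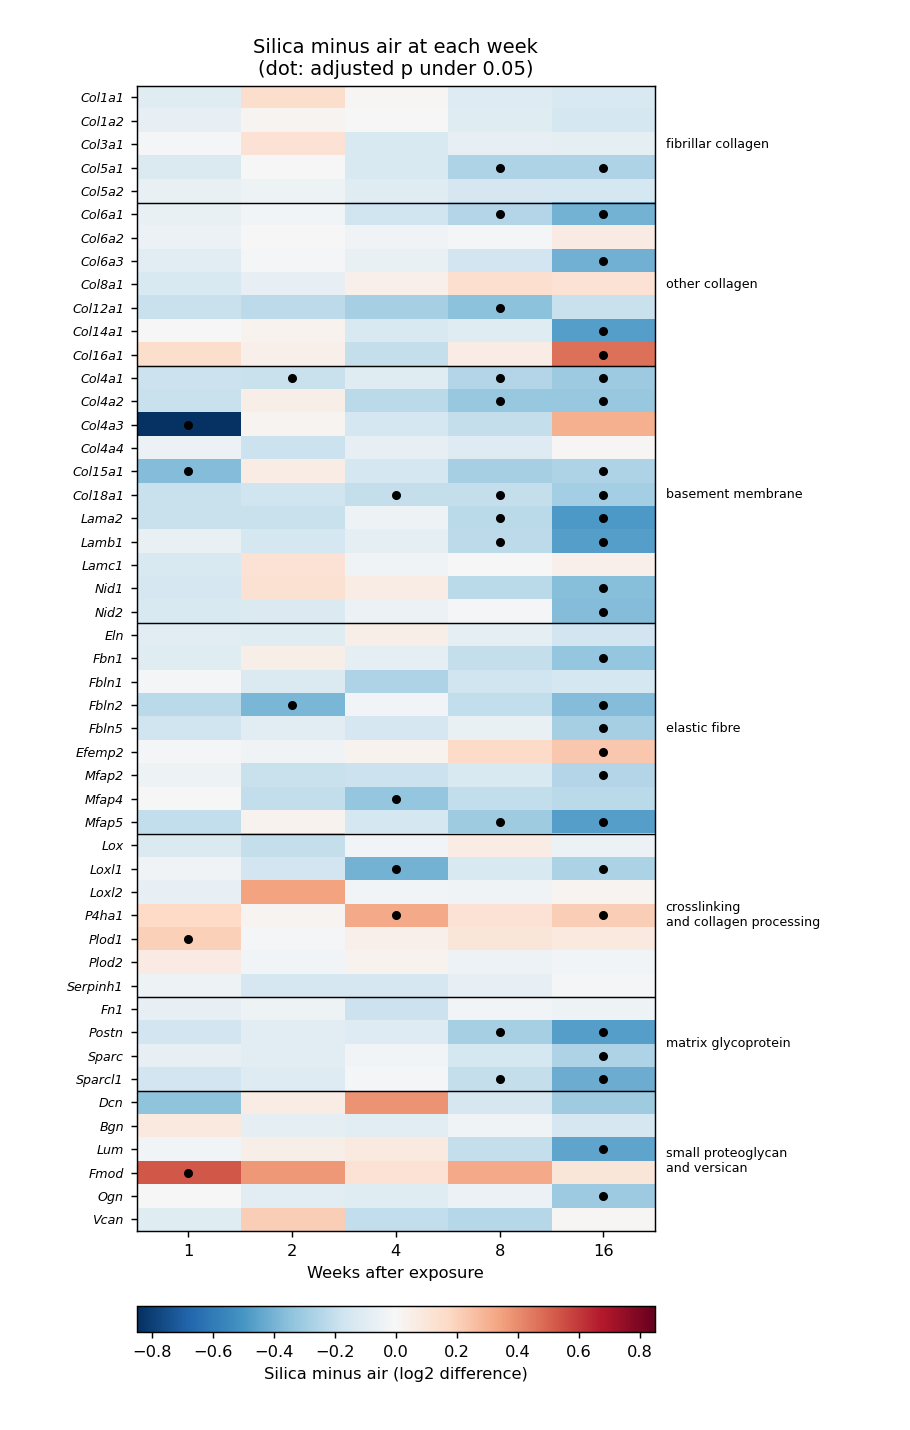
Silica minus air (log2 difference, colour, blue for lower in silica) for the 49 genes in rows by class and the 5 weeks in columns, with a dot where adjusted p was under 0.05. Dots number 4, 2, 4, 11 and 26 from 1 to 16 weeks, and the 16-week column holds 23 blue and 3 red called cells.

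Of the 24 genes that fell over the weeks in air, 15 (62.5%) were among the 23 lower in silica lungs at 16 weeks (65.2% of those). Over all 49 genes, 24 (49%) fell in air and 23 were lower at 16 weeks, so many shared genes are expected without any link. Whether 15 exceeds that number was not tested. The 2 sets share the 16-week air lungs. Col1a1, Col3a1 and Eln were in the first set and not in the second, and Postn, Sparcl1, Mfap5 and Lum were in the second and not in the first.

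Heart muscle markers also differed at 16 weeks, and from what part of the sample their RNA came was not tested. Of 6 heart muscle markers listed, 4 were tested, and Actc1 and Nppa were detected on 0 and 2 of 60 arrays. The 4 tested were called lower in silica lungs (Myh6 -5.23, Myl7 -4.86, Tnni3 -3.20 and Tnnt2 -3.12 on the log2 scale), and their mean log2 level was 9.79 to 10.74 in the 4 air lungs against 5.37 to 9.52 in the 8 silica lungs. None of the 4 was called at the other 4 weeks, but their differences there were not small. They ran from -1.87 to -1.14 at 1 week and from 0.65 to 1.41 at 2 weeks. At 4 weeks they ran from 1.89 to 2.87 and at 8 weeks from -1.94 to -1.14, with SE of 0.85 to 1.33. With that mean level added to the fit, 17 genes were called at 16 weeks, 16 of them among the 26. The gene gained was the fibrillar collagen Col5a2, which moved from -0.15 to -0.18 (adjusted p = 0.0411). The 16 included Lama2, Lamb1, Postn, Sparcl1, Mfap5, Col6a1, Col6a3 and Col16a1, although Mfap5 moved from -0.47 to -0.26. The 10 that were no longer called moved unequally. Col14a1 went from -0.47 to -0.46, Col5a1 from -0.26 to -0.22 and Col4a2 from -0.32 to -0.26. Fbn1 (-0.33 to -0.24), Fbln2 (-0.37 to -0.28), Nid1 (-0.36 to -0.27), Fbln5 (-0.28 to -0.18) and P4ha1 (0.21 to 0.15) also came closer to 0. Lum went from -0.45 to -0.20 and Col15a1 from -0.26 to -0.07, the largest moves of the 10.

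Lung cell markers moved as well. All 6 endothelial markers tested were lower at 16 weeks, from -0.33 to -0.45, with summed levels of 20388 to 23074 in air and 14674 to 16998 in silica lungs. The 4 macrophage markers tested were all higher, from 0.47 to 0.88. Of 7 epithelial markers 3 were called, Ager (-0.26) and Aqp5 (-0.33) lower and Sftpd (0.74) higher. Of 5 fibroblast markers 2 were lower (Pdgfra by 0.38, Gucy1a1 by 0.60), and of 5 smooth muscle markers 2 (Myh11 by 0.49, Des by 0.56). The fibroblast markers not called included Thy1 and Fgf10, detected on only 7 and 6 of 60 arrays. At 1, 2, 4 and 8 weeks 2, 2, 3 and 3 of the 6 endothelial markers were called lower, and 2, 3, 3 and 3 of the 4 macrophage markers higher. Epithelial markers called in either direction numbered 0, 2, 1 and 3 of 7 at the same weeks. The part of these cells in the lower matrix genes was not tested.

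The order of arrays in the deposited table gives a second grouping, 8 runs of up to 10 arrays. Of these, 4 runs hold 1 array of each of the 10 groups and 4 hold silica arrays only. In the 40 arrays of the first kind 22 genes were called at 16 weeks, 21 of them among the 26. There too Col5a2 was the gene gained, and Col5a1 was no longer called. What the runs stand for is not stated, and air replicate 4 counted more than any other rat: without it 16 genes were called at 16 weeks, all among the 26.

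Whether the silica difference changed between weeks was tested directly. Over the 5 weeks 5 of the 49 genes were called, Col16a1, Sparcl1, Postn, Col4a3 and Lamb1, against 1.96% of all genes (adjusted p = 0.00275, 0.0226, 0.0243, 0.0306 and 0.0368). As a trend with the weeks 4 were called, against 1.75% of all genes (0.977% upward, 0.776% downward): Lamb1, Postn and Col6a1 became lower in silica lungs relative to air by 0.09 ± 0.02, 0.08 ± 0.02 and 0.09 ± 0.02 per doubling (adjusted p = 0.0178, 0.0189 and 0.0272), and Col4a3 became higher by 0.21 ± 0.05 (adjusted p = 0.0308). With the heart muscle mean in the fit the first test called 0 genes and the second 1, and median scaling left 2 and 1.

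Of the 49 genes Col4a3 had the steepest change in the silica difference. Silica lungs had group means of 6.42, 7.17, 7.02, 6.76 and 7.37 from 1 to 16 weeks, while air lungs stayed between 6.96 and 7.26. At 16 weeks silica lungs spanned 6.64, 7.46 and 7.84 against 7.08, 7.15, 7.02 and 7.03 in air, and the ranges overlapped. Its head-to-head partner Col4a4 read 4.93, 5.34 and 5.46 in silica lungs at 1 week against 5.28, 5.23, 5.34 and 5.52 in air (-0.05 ± 0.12, adjusted p = 0.901), near the limit of detection.

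**Figure D4:**
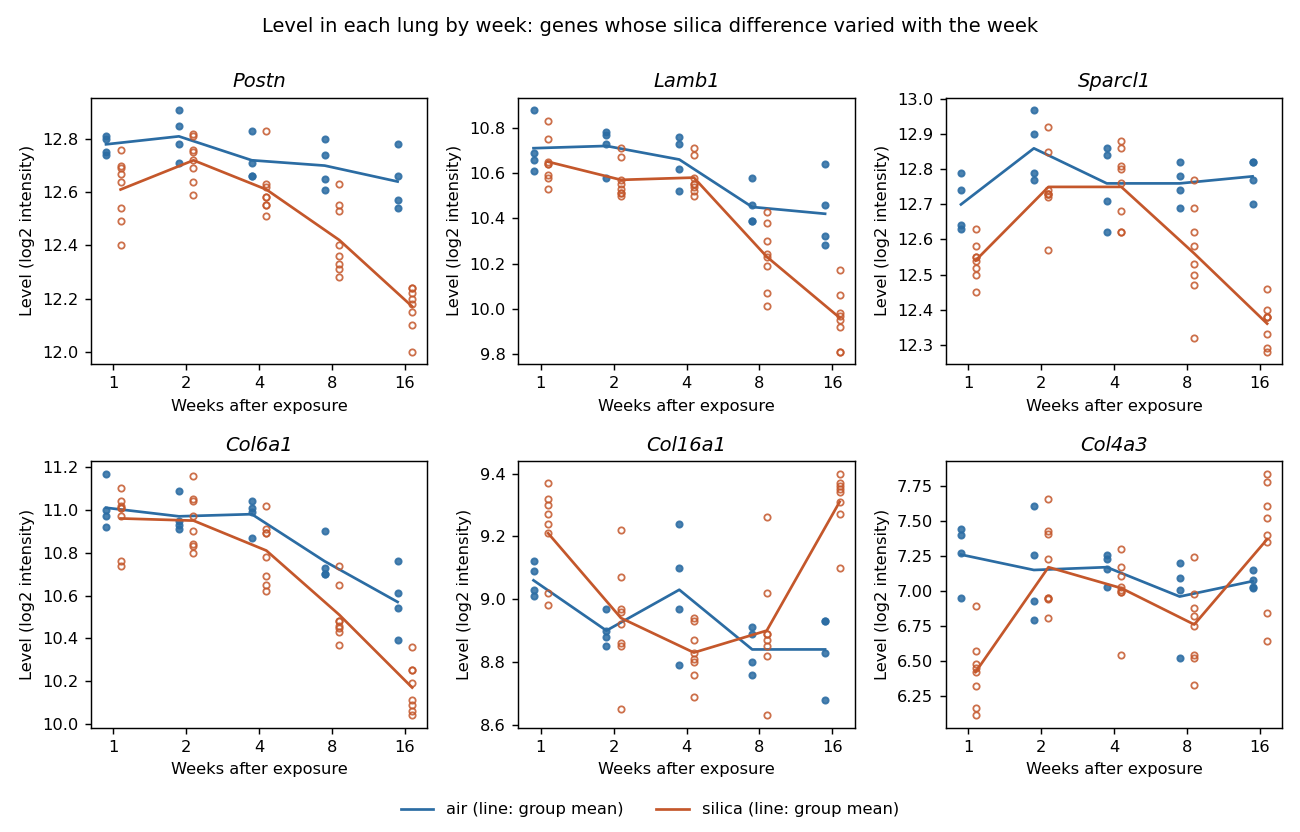
Level (log2 intensity, vertical axis) of Postn, Lamb1, Sparcl1, Col6a1, Col16a1 and Col4a3 in each of 60 lungs by weeks after exposure, with filled points for air, open points for silica and lines through the group means. For Postn, Lamb1, Sparcl1 and Col6a1 the 8 silica lungs at 16 weeks lie below all 4 air lungs, for Col16a1 above, and the Col4a3 silica lungs are low at 1 week.

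Averaged over the 5 weeks, 29 genes were called, 24 lower and 5 higher, against 20.6% of all genes lower and 14.6% higher (35.2% in either direction). Elastic fibre genes gave 7 of 9 lower, although elastin was not among them, and basement membrane genes 7 of 11. Col12a1 (-0.24 ± 0.04), Fbln2 (-0.24 ± 0.05) and Lama2 (-0.23 ± 0.03) had the largest falls. Fmod (0.29 ± 0.06), P4ha1 (0.17 ± 0.03), Col16a1, Plod1 and Efemp2 were higher. None of the 29 reached 1.5-fold. On the same average all 6 endothelial markers were lower (median -0.25, against -0.11 over the 49 genes) and all 4 macrophage markers higher (median 0.47). Of 7 epithelial markers 2 were called lower and 2 higher.

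At 16 weeks 22.7% of all genes were called, 12.2% lower and 10.5% higher. Of the 58 further matrix genes 27 were called then, 21 lower and 6 higher, a share of 46.6% against 53.1% of the 49. The 4 past 1.5-fold were Emilin2, an elastin-interface protein, higher by 0.97 ± 0.13 (adjusted p = 2.61e-08), Cthrc1, a collagen triple helix repeat protein, higher by 0.61 ± 0.10 (adjusted p = 2.17e-06), Spon2, a secreted adhesion protein, and Ecm1. Spon2 was lower by 0.89 ± 0.14 and Ecm1 by 0.61 ± 0.07 (adjusted p = 1.1e-06 and 3.09e-09). Col17a1, the transmembrane collagen of epithelial hemidesmosomes, was higher by 0.43 to 0.61 at each of the 5 weeks, and past 1.5-fold at 8 weeks, as was Emilin2 (0.59 ± 0.13, adjusted p = 0.000771). Emilin2 was also called higher at 2 and 4 weeks (0.54 and 0.39), and Cthrc1 at 1 and 8 weeks (0.41 and 0.31). Spon2 was also called lower at 4 and 8 weeks (-0.44 at each), and Ecm1 at 2, 4 and 8 weeks (-0.22, -0.24 and -0.41).

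Lung by lung, levels of partner genes were compared after the mean of each of the 10 groups was removed, for 7 pairs over 60 lungs, with permutation p-values adjusted over the 7. Col1a1 and Col3a1 varied together (Pearson r = 0.38, adjusted p = 0.0245, Spearman rho = 0.40, adjusted p = 0.0159), and r was 0.45 without the 2 lungs farthest from the median of Col1a1 and 0.48 with the run of arrays also removed. Col4a1 and Col4a3 gave r = 0.47 (adjusted p = 0.0084, rho = 0.47, adjusted p = 0.00553) 0.44 without 2 lungs and 0.38 with the run removed, but 0.11 under median scaling. Col4a1 and Col4a2, the head-to-head pair, had r = 0.15 (adjusted p = 0.381) and Col4a3 and Col4a4 r = 0.12 (adjusted p = 0.444). Col1a1 and Col1a2 passed by rank (rho = 0.31, adjusted p = 0.0393) and not by r (0.25, adjusted p = 0.114), as did Col6a1 and Col6a2 in the opposite direction (rho = -0.30, adjusted p = 0.0393, r = -0.25, adjusted p = 0.114). Col6a2 was detected on only 4 of 60 arrays, so the latter pair sets a gene against values near background. With the run removed its r was -0.07 (adjusted p = 0.655). Eln and Fbln5 passed by neither (r = 0.20, adjusted p = 0.168, rho = 0.25, adjusted p = 0.093). Under median scaling r passed for Col1a1 and Col1a2 and for Eln and Fbln5 (0.59 each, adjusted p = 2.33e-05), for Col4a1 and Col4a2 (0.32, adjusted p = 0.0408) and for Col6a1 and Col6a2 (-0.36, adjusted p = 0.0126), and with the run removed it passed for Eln and Fbln5 (0.37, adjusted p = 0.021). Median r of Col1a1 with all genes tested was -0.02 after quantile normalisation. The same median was not computed under median scaling, so the r values there have no such background beside them.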

How the data were processed

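Per the labels, lung RNA of 60 rats was hybridised to 60 bead arrays. Per the file headers the deposited values are the average intensity of each gene's beads and a detection p-value. The authors' processed table, whose values lie on a log2 scale, was an alternative setting only. BeadStudio, lumi and limma were used per the submitters' processing notes, and their versions are not given in the sources used here. In replicate 3 of silica at 4 weeks the intensity column was displaced by 2 lines and was moved back (correlation with the median array 0.232 before and 0.998 after). The 120 per-sample columns of bead error and bead number were not used. The median intensity of an array ran from 60.2 to 97.8, and 11225 to 12594 entries of the array were detected on each, where a gene can have more than 1 entry. The number of arrays limits the precision.

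Background was corrected by normexp from 825 negative control types inferred from the detection p-values (offset 16), then arrays were quantile normalised and taken to log2. Genes detected on at least 4 arrays were kept, the brightest entry for each gene. Names came from a RefSeq gene table, in which the gene identifier named 16866 of 21792 entries and an accession 23, while 4786 kept the file's own symbol. One limma 3.58.1 fit (R 4.3.3) over 10 group means (50 residual degrees of freedom) gave silica minus air for each week, their average, slopes per doubling of weeks, the slope difference and an F test over the 5 weeks. Benjamini-Hochberg adjustment ran over 13918 genes, with a call at adjusted p under 0.05. The pipeline was tested on simulated data.

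Named are 16 set genes (1 of them, Tnc, not analysed here), every gene of the list called in a comparison, and further matrix genes called with 1.5-fold, up to 6 a comparison. The genes, lists and marker lists were chosen with earlier results of these data known. Pairs were tested with 100000 shuffles of lungs within groups. Slide numbers are not given in the headers, so runs of the deposited array order were used as a block instead. Those runs, the 40 arrays of mixed runs and the heart muscle covariate were added after seeing the data.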

Additional observations from a re-analysis of the deposited data

Results flagged for a closer look

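In 15 genes with values shown by lung, 150 groups were examined for a single lung far from the rest (Dixon's gap), and chance alone flags about 1 in 20 groups. There were 7 such lungs. In air at 2 weeks replicate 3 was high for Col4a1 (11.66, the others 11.41 to 11.44) and for Col4a4 (5.65, the others 5.25 to 5.29). In silica at 4 weeks replicate 5 was low for Col4a3 (6.54, the others 6.99 to 7.30) and for Fn1 (12.53, the others 12.74 to 12.84), and replicate 3 was high for Sparc (13.28, the others 13.08 to 13.17). Col15a1 was high in silica replicate 5 at 2 weeks (10.09, the others 9.53 to 9.78), and Loxl1 in silica replicate 4 at 8 weeks (11.03, the others 10.48 to 10.72).

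The silica difference was not the same at all 5 weeks by an F test of limma in Col16a1 (adjusted p = 0.00275), Sparcl1 (0.0226), Postn (0.0243), Col4a3 (0.0306) and Lamb1 (0.0368). The slope in silica lungs minus that in air lungs was 0.21 for Col4a3, -0.09 for Col6a1, -0.09 for Lamb1 and -0.08 for Postn.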

How the results depend on the processing

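No called difference or slope, and neither correlation called by r, changed direction under any alternative. Of differences that were not called, Col1a1 at 16 weeks went from -0.13 to 0.04 (adjusted p = 0.872) with the heart muscle mean as a covariate. The counts of genes called changed as follows, and where a value or the smaller number of arrays does not show it, the cause was not tested. Median scaling in place of quantile normalisation gave 1 gene at 1 week (4 reported), 4 at 2 weeks (2), 0 at 8 weeks (11), 1 for the slope difference (4) and 2 for the F test over the weeks (5). The 40 arrays of mixed runs gave 2, 0, 0, 1 and 2 in the same order. The run as a block gave 7 at 4 weeks (4), 7 for the slope difference and 9 for the F test. The heart muscle mean as a covariate gave 4 at 2 weeks, 4 at 8 weeks, 17 at 16 weeks (26), 1 for the slope difference and 0 for the F test. Array weights gave 0, 2 and 5 at 2, 4 and 8 weeks, each week fitted alone 1, 2 and 3, no detection filter 1 at 2 weeks and 2 at 4 weeks, and cyclic loess 2 at 4 weeks. At adjusted p under 0.01 with 1.5-fold (for slopes over the 4 doublings from 1 to 16 weeks) 1 gene was left at 1 week, 0 at 2, 4, 8 and 16 weeks, 0 for the average and the slope difference, 8 for the air slope (24) and 23 for the silica slope (40), and at 0.01 alone 1 for the F test. The other counts lay within 1.5 times those reported, including all alternatives of the air slope other than that threshold (18 with median scaling to 29 with the run as a block).

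With 1 rat left out at a time the counts ran from 2 to 5 at 1 week, 0 to 4 at 2 weeks, 0 to 8 at 4 weeks, 3 to 13 at 8 weeks, 16 to 25 at 16 weeks, 28 to 31 for the average, 19 to 25 for the air slope, 40 to 42 for the silica slope, 1 to 5 for the slope difference and 1 to 6 for the F test. The lowest came without air replicate 3 or 4 at 1 and 2 weeks, without air replicate 4 at 4, 8 and 16 weeks and for the slope difference (its 16-week rat), and without air replicate 3 at 16 weeks for the F test.

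Within groups, median scaling ended the call of Col4a1 and Col4a3 and added 4 others: it gave r = 0.59 for Col1a1 and Col1a2, 0.32 for Col4a1 and Col4a2, 0.11 for Col4a1 and Col4a3, -0.36 for Col6a1 and Col6a2 and 0.59 for Eln and Fbln5, and removing the run also added the last pair (0.37). Col6a2 was detected on only 4 of 60 arrays. Replicate numbers did not pair the animals: over 20 pairs the correlation of deviations was -0.34 to 0.38 (median -0.01), and 3 were closest to their own number. With a replicate block 4 genes were called at 2 weeks in place of 2, 24 at 16 weeks and 26 in the air slope. The number of arrays, 4 in each air group, limits what weekly comparisons can show.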
